A study of Mus musculus with 6 samples.

Results

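Rbm3 and Cirbp encode the pair of glycine-rich RNA-binding proteins best known for being induced by mild cold. Their messenger RNA was followed in CT26 tumours of mice given PEGylated glutaminase or vehicle, where they are 2 of 40303 gene models. The pair was selected on its normalized counts in treated against vehicle tumours, since both were lower in the treated ones, so their levels and differences in that contrast are a description and carry no test. CT26 is a colon carcinoma line of BALB/c mice, and all tumours grew under the skin of wild-type BALB/c mice, 1 tumour per mouse. In the treated group, 3 mice received glutaminase coupled to polyethylene glycol, an enzyme that breaks down circulating glutamine, at 50 IU/kg into the peritoneum. The 3 vehicle mice received PBS with 10% glycerol. Both groups were injected once every 3 days for 2 injections after the tumours could be felt, and whole frozen tumours were sequenced. Carcinoma cells and host cells were therefore read together, and fewer cells of a type cannot be told apart from less RNA per cell.

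Both proteins carry a single RNA recognition motif at the amino end, which contacts RNA, and a glycine-rich tail. At a body temperature lowered by a few degrees their mRNA and protein are known to rise in many cell types, and heat lowers them. They bind messenger RNA and act on translation, mRNA stability, splicing and polyadenylation, and RBM3 is also known for a role in synapse maintenance in the cooled brain. CIRBP can also leave stressed cells, where it acts as a danger signal on immune cells.

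The sequences show how alike the 2 genes are, and how much more alike Rbm3 is to its own processed copies. The coding sequence of Rbm3 runs over 465 bases and that of Cirbp over 519 bases. Over the first 258 bases, or 86 codons, which hold most of the RNA recognition motif, 184 bases were identical (71.3%). A stretch from base 100 to base 165 of each coding sequence, read from the GENCODE M21 transcripts, shows this spacing of matches and mismatches, with capitals at the bases that differ between the genes. Of its 66 bases 50 were identical.
Rbm3: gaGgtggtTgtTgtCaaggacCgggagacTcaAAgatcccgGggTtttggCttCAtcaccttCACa
Cirbp: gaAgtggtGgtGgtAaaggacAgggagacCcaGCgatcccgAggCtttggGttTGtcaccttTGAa

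Rbm3-ps, a processed pseudogene and thus a copy of the spliced message put back into the genome, is nearly the same letter for letter. It differed from the Rbm3 coding sequence by T198C, T315C and G316A, with positions counted from 1 at the first coding base, the Rbm3 base first and the Rbm3-ps base last. All 3 differences lie in the stretch from base 190 to base 324, shown here with the differing bases in capitals.
Rbm3: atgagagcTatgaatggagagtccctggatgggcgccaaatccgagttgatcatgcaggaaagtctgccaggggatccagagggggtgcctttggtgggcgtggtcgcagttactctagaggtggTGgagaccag
Rbm3-ps: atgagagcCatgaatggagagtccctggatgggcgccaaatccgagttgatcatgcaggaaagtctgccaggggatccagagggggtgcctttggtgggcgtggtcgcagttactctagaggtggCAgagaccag

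Of the 416 stretches of 50 bases in Rbm3-ps, 315 (75.7%) occur without a mismatch in an Rbm3 transcript. The 315 matching stretches of the Rbm3 transcript are 28.6% of the 1103 such stretches of that transcript. A read from such a stretch cannot be assigned to 1 of the 2 genes by its letters. A search of all GENCODE transcripts for copies with at least 85% identity over at least 300 bases found 5 for Rbm3 and 0 for Cirbp.

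The promoter of Cirbp is printed because the octamer TCCCCGCC has been reported as an element through which mild cold acts on this gene, bound by the zinc finger factor Sp1. RefSeq gives 2 promoter windows for Cirbp, and the one at GRCm38.p6 chr10:80167589-80167888, plus strand, holds 250 bases before a transcription start and 50 after it. Capitals mark the octamer, at base 4 of the window, and the GC boxes (GGGCGG, or CCGCCC where it lies on the other strand).
Cirbp: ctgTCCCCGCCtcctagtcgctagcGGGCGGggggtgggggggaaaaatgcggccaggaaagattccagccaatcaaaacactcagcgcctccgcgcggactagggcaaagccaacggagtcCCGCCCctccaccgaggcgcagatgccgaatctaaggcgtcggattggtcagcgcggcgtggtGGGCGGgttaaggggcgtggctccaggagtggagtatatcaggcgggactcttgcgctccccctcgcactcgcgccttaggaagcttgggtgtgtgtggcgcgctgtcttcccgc

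Both strands of 32817 promoter windows of this length were searched. TCCCCGCC was found once in the printed Cirbp window and in 5.38% of all windows. GGGCGG was found 2 times on the plus strand and 1 time on the minus strand of the Cirbp window, and in 35.6% of all windows. CCAAT was found 1 time on each strand, and in 37.4% of all windows. The heat shock motif GAANNTTC, which reads the same on both strands, had 0 matches in the Cirbp window and occurred in 7.86% of all windows. The matches do not overlap one another. The other Cirbp window held GGGCGG 3 times on the plus strand and 1 time on the minus strand, and none of the other 3 motifs.

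Each vehicle library held 17380129 to 18051480 reads and each PEG-glutaminase library 16455052 to 16791267. Values are the authors' normalized counts, reads divided by a size factor of the library. Limma on log2(value + 1) tested 13557 genes with a mean of at least 10 and called 1 higher (0.00738%) and 4 lower (0.0295%) at an adjusted p under 0.05. At an unadjusted p under 0.05 it had 2498. The limma count was 0 without vehicle 1, vehicle 2 or PEG-glutaminase 1, 20 without PEG-glutaminase 2 and 25 without PEG-glutaminase 3. EdgeR on the recovered reads called 0, with 2554 at an unadjusted p under 0.05, and DESeq2 called 216 higher (1.73%) and 271 lower (2.17%). Vim, the mesenchymal filament gene, stood at 87851 to 139819 normalized counts in the 6 tumours. The colon keratin gene Krt20 stood at 2349 to 5226, whereas the epithelial adhesion gene Epcam reached at most 58.0 and the brush border gene Vil1 at most 4.12. The labels thus name a colon carcinoma in which defining epithelial markers were low or near 0.

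Rbm3 was lower in every treated tumour than in any vehicle tumour. The gene (ENSMUSG00000031167) lies on the minus strand at chrX:8138975-8145880 in GENCODE M21 on GRCm38. Its normalized counts were 2546, 2952 and 2884 in vehicle 1, 2 and 3. They were 1883, 1750 and 1752 in PEG-glutaminase 1, 2 and 3. The groups did not overlap, and the highest treated tumour lay below the lowest vehicle tumour. The means were 2794 ± 217 (SD, n = 3) in vehicle and 1795 ± 76.1 (SD, n = 3) in PEG-glutaminase tumours, 35.6% or 1.55-fold lower. On the log2(value + 1) scale the difference was -0.64 ± 0.08 (SE). In the authors' deposited table the log2 fold change of Rbm3 was -0.48 with a standard error of 0.12. Its sign was the same as in the library values, and its size was smaller.

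Counting error was a small part of the spread of Rbm3. The libraries held 1703 to 3009 reads of Rbm3, which gives a mean counting error of 2.13% per library. The spread between mice was 7.78% of the mean in vehicle and 4.24% in PEG-glutaminase tumours. As CPM, reads scaled only to the library total, Rbm3 stood at 150, 167 and 169 in vehicle and at 109, 105 and 103 in treated tumours. The order of the groups was therefore the same on both scales. Of the 13557 tested genes, 1644 were more abundant than Rbm3 and 735 (5.42%) had a lower log2 difference. Leaving out each library in turn gave Rbm3 log2 differences from -0.70 to -0.59.

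**Figure D1:**
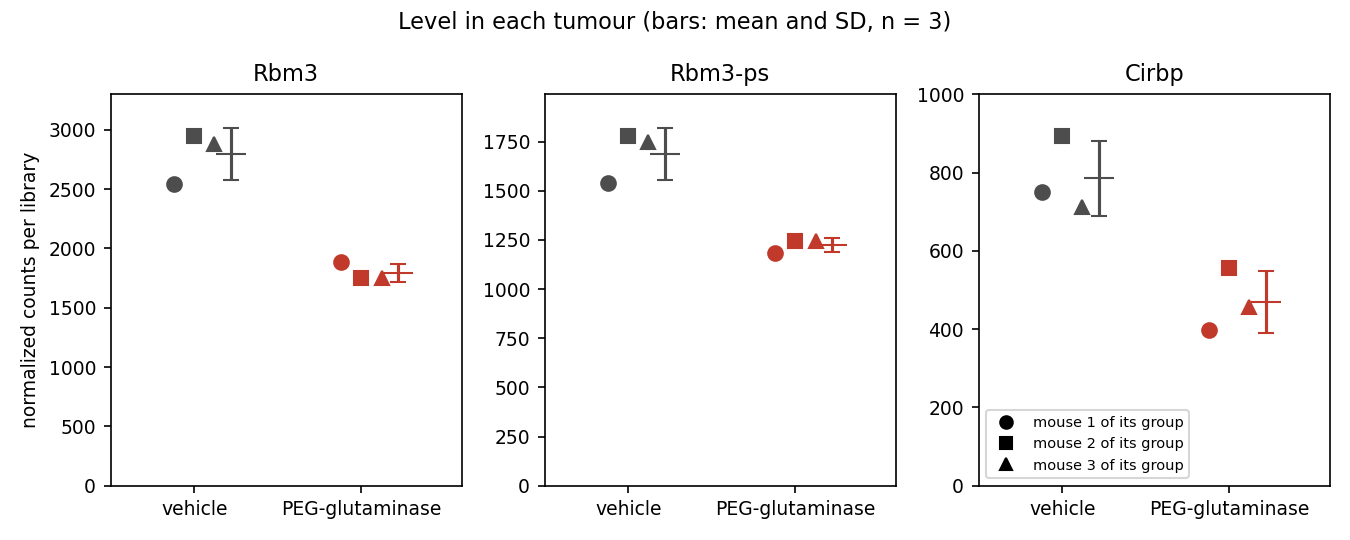
Normalized counts (vertical axes, from 0) of Rbm3, Cirbp and Rbm3-ps in each tumour, with vehicle in grey, PEG-glutaminase in red, a marker shape per library number, and bars for the mean and SD (n = 3). In all 3 panels every treated tumour sits below every vehicle tumour, with Rbm3 at 1750 to 1883 against 2546 to 2952.

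Cirbp was lower in the same direction and more variable between mice. The gene (ENSMUSG00000045193) lies on the plus strand at chr10:80165985-80172786. Its normalized counts were 750, 895 and 711 in vehicle 1, 2 and 3. They were 397, 555 and 456 in PEG-glutaminase 1, 2 and 3. The groups did not overlap, and PEG-glutaminase 2, the highest treated tumour, still lay below vehicle 3, the lowest vehicle tumour. Rbm3 and Cirbp both passed the filter on low values and both were lower without overlap, as were 12.7% of all tested genes. Nothing is read from that count, since the pair was selected on this contrast. The means were 785 ± 96.7 (SD, n = 3) in vehicle and 469 ± 80.2 (SD, n = 3) in PEG-glutaminase tumours, 40.5% or 1.68-fold lower. On the log2(value + 1) scale the difference for Cirbp was -0.75 ± 0.14 (SE). In the authors' deposited table it was -0.72 with a standard error of 0.15.

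Cirbp rested on 383 to 912 reads per library, with a mean counting error of 4.12%. Its spread between mice was 12.3% in vehicle and 17.1% in PEG-glutaminase tumours, so counting was the smaller part here too. As CPM, Cirbp stood at 44.2, 50.5 and 41.7 in vehicle and at 23.0, 33.4 and 26.9 in treated tumours. Of all tested genes 6088 were more abundant than Cirbp, and 547 (4.03%) had a lower log2 difference. Leaving out each library in turn gave Cirbp log2 differences from -0.88 to -0.63.

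Per kilobase of the longest annotated protein-coding transcript, the mean level of Rbm3 was 1001 normalized counts in vehicle and 643 in treated tumours. Cirbp on that per-length scale stood at 594 and 355. With the median protein-coding transcript length in place of the longest, Rbm3 stood at 2321 and 1491 per kilobase and Cirbp at 900 and 538. Rbm3 was thus the more abundant of the 2 transcripts by length in both groups, under either length.

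Within a tumour, the ratio of Rbm3 to Cirbp counts did not separate the groups. It was 3.40, 3.30 and 4.06 in vehicle 1, 2 and 3. In PEG-glutaminase 1, 2 and 3 it was 4.75, 3.15 and 3.84. The treated tumours held both the highest and the lowest ratio, with means of 3.58 ± 0.411 (SD, n = 3) in vehicle and 3.91 ± 0.800 (SD, n = 3) in PEG-glutaminase. Across the 6 libraries the log2 values of Rbm3 and Cirbp had a Pearson correlation of 0.88, given as a description of libraries that share the group difference. With the group means taken out it was -0.09. Vehicle 2 was the highest vehicle tumour for both genes, whereas PEG-glutaminase 1 was the highest treated tumour for Rbm3 and the lowest for Cirbp.

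Rbm3-ps, at chr1:150265535-150265999 on the minus strand, was counted as a gene of its own. Its normalized counts were 1537, 1780 and 1748 in vehicle and 1181, 1242 and 1244 in PEG-glutaminase 1, 2 and 3. The groups did not overlap, and the 27.5% difference (log2 -0.46 ± 0.08, SE) was smaller than that of Rbm3. In the authors' deposited table the log2 fold change of Rbm3-ps was -0.34 with a standard error of 0.11. Because most 50-base stretches of the pseudogene also occur in Rbm3, the split of reads between the rows is uncertain. It may depend on the counting settings, which the sources used here do not give.

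The ratio of Rbm3-ps to Rbm3 was 0.604, 0.603 and 0.606 in the vehicle tumours, a spread of 0.00160 (SD, n = 3). In PEG-glutaminase 1, 2 and 3 it was 0.627, 0.710 and 0.710. Every treated tumour was above every vehicle tumour, and PEG-glutaminase 1 lay nearest to the vehicle value. The mean ratio was 0.604 in vehicle and 0.682 ± 0.0478 (SD, n = 3) in treated tumours. This ratio uses Rbm3 and is given without a test.

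**Figure D2:**
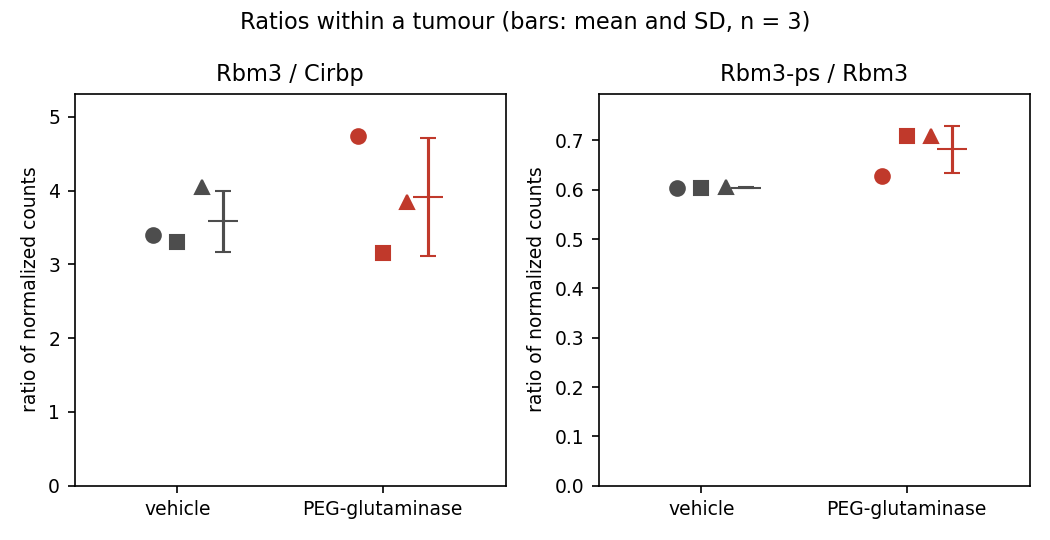
Ratio of normalized counts (vertical axes, from 0) of Rbm3 to Cirbp and of Rbm3-ps to Rbm3 in each tumour, with a marker shape per library number and bars for the mean and SD (n = 3). The Rbm3 to Cirbp ratios of the groups overlap, while the Rbm3-ps to Rbm3 ratio stays at 0.603 to 0.606 in vehicle and reaches 0.710 in 2 treated tumours.

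The other copies of Rbm3 had lower counts. A Phospho2 transcript that holds an Rbm3 copy (97.4% identity over 380 bases) belongs to a gene at 303 ± 35.0 (SD, n = 3) in vehicle and 282 ± 8.94 (SD, n = 3) in treated tumours, and its groups overlapped. The pseudogenes Gm13624 and Gm2021 had at most 2 reads and 0 reads per library, and Gm10156 was not analysed here. The antisense gene Rbm3os, which overlaps the start of Rbm3 on the other strand, stood at 4.14 to 11.8 normalized counts. How many Rbm3 reads of the shared stretch were left uncounted was not tested. Rbm3 summed with Rbm3-ps, Gm13624 and Gm2021, an alternative chosen after seeing the data, was 4483 ± 350 in vehicle and 3019 ± 40.8 in treated tumours. On the log2 scale the summed difference was -0.57 ± 0.08 (SE), between those of Rbm3 and Rbm3-ps.

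The summed levels of some host cell markers separated the groups. The summed level of 14 T and NK cell markers ran from 4710 to 5388 in vehicle and from 681 to 3677 in PEG-glutaminase tumours, with 14 of 14 lower. That of 10 dendritic cell and antigen presentation markers ran from 24688 to 41540 and from 6966 to 16159, with 9 of 10 lower. Limma and edgeR called 0 of either list. DESeq2 called 1 and 5, all lower, against 2.17% lower of all genes. At an unadjusted p under 0.05 in limma, 2 and 6 were lower and 0 higher, against 9.51% and 8.92% of all genes. None of the T and NK or dendritic markers was at 0 in all libraries. Erythroid genes summed to 480 to 590 in vehicle and 956 to 1313 in treated tumours, and the 3 that were tested were all higher. The list of carcinoma and epithelial markers, which Vim dominates, summed to 119692 to 144641 and to 90443 to 112017. Their part in the lower Rbm3 and Cirbp was not tested. Neutrophil markers summed to 463 to 524 in vehicle and to 527 to 747 in treated tumours. Of the 5 that were tested, 3 were higher and 2 lower. Ngp was at 0 in all libraries, and Ly6g, Retnlg and Camp reached at most 1.04, 4.12 and 0.98. Sums of macrophage, fibroblast, endothelial, muscle and B cell markers overlapped between the groups.

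Single tumours also stood apart. Keratinocyte genes summed to 8366 in vehicle 1, 123 in vehicle 2 and 294 in vehicle 3. In treated tumours they summed to 95.0 to 113, so these groups did not overlap either, and all 9 tested were lower. Limma, edgeR and DESeq2 called 0 of the 9. At an unadjusted p under 0.05 in limma 2 were lower, against 9.51% of all genes. PEG-glutaminase 2 had the lowest T cell and dendritic sums. Leaving out vehicle 1 and PEG-glutaminase 2 together was an alternative chosen after seeing the data. The log2 difference was then -0.68 for Rbm3 and -0.91 for Cirbp. Both were at least as far from 0 as with all tumours.

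Transcript length was related to the difference as well. The median log2 difference was -0.17 over 953 genes with longest transcripts under 1000 bases and 0.07 over 4895 genes of 4000 bases and over. The longest protein-coding transcript of Rbm3 has 2792 bases and that of Cirbp 1321 bases, and Rbm3-ps has 465 bases. The length groups and the correction used the longest transcript of any type. After each library was corrected for length, the log2 difference was -0.61 for Rbm3 and -0.66 for Cirbp. For the short Rbm3-ps it was -0.25, against -0.46 without the correction. That move was larger than the pooled SD of 0.087 between libraries of a group.

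**Figure D3:**
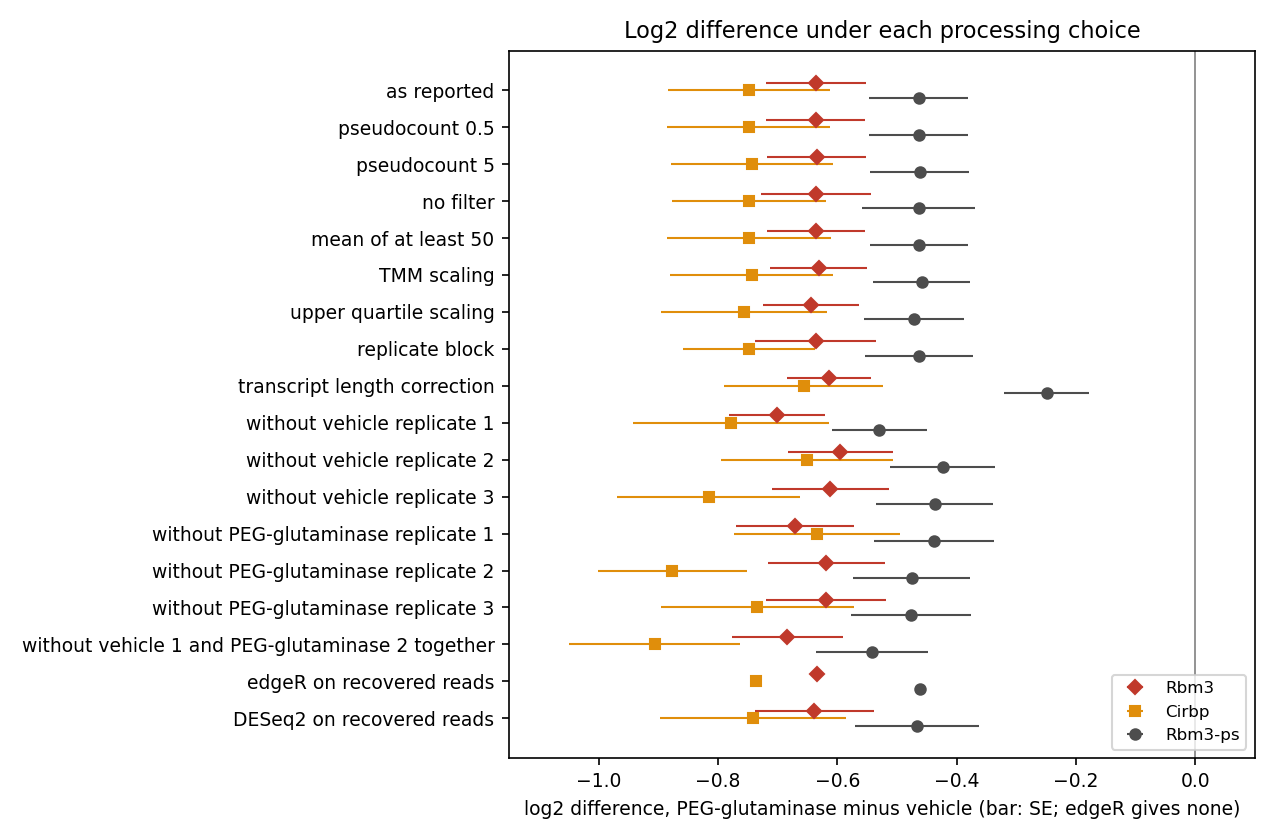
Log2 difference (horizontal axis, PEG-glutaminase minus vehicle) of Rbm3 and Cirbp under each processing alternative and with each library left out, beside Rbm3-ps, with bars for the standard error, which the edgeR run does not give. Every value lies below 0, and with 1 library left out Rbm3 lies between -0.70 and -0.59.

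Genes listed as relatives of the 2 stood mostly on the other side of 0. The 9 tested were Rbmx, Rbmxl1, Rbmx2, Rbm14, Rbm4, Rbm4b, Rbm38, Tra2a and Tra2b. Their likeness to Rbm3 and Cirbp in sequence or build was not measured. In treated tumours 7 were higher and 2 lower. The median log2 difference was 0.13 against -0.00005 over all tested genes, and 0.20 without PEG-glutaminase 3. None passed limma or edgeR, and 1 passed DESeq2 as higher, against 1.73% higher of all genes. At an unadjusted p under 0.05, 2 were higher and 1 was lower, against 8.92% higher and 9.51% lower of all genes. Rbm14, a coactivator found in paraspeckles, stood at 997, 875 and 973 in vehicle and at 1335, 1260 and 1201 in treated tumours. Its groups did not overlap, and its log2 difference of 0.42 ± 0.09 (SE) had a limma adjusted p of 0.114. Rbm38, a p53 target that stabilises mRNA, stood at 401 ± 0.484 (SD, n = 3) and 481 ± 45.3 (SD, n = 3), with a limma adjusted p of 0.229. Rbmx, an X-linked splicing regulator, stood at 795 ± 15.6 and 678 ± 85.4 (SD, n = 3 each), with a limma adjusted p of 0.257.

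Across all 34 tested genes with an RBM symbol, Rbm3 had the lowest log2 difference. The next lowest, Rbm43 and Rbmx, stood at -0.24 each, and Rbm43 was named after its value was seen. Of the 33 other than Rbm3, 25 were higher and 8 lower, with a median of 0.11. Limma and edgeR called 0 of these 33. DESeq2 called 1, higher, against 1.73% higher of all genes. At an unadjusted p under 0.05 there were 4 higher and 1 lower, against 8.92% and 9.51% of all genes. Without overlap between the groups 6 were higher and 2 lower, against 13.1% and 12.7% of all genes.

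Heterogeneous nuclear ribonucleoproteins, which bind newly made transcripts, stood close to the middle of all genes. Of 26, 19 were higher and 7 lower, with a median log2 difference of 0.04. Limma, edgeR and DESeq2 called 0 of them, and an unadjusted p under 0.05 was reached by 2 higher and 2 lower, close to the 8.92% and 9.51% of all genes. Hnrnpab, 1 of the higher ones, stood at 9213 ± 287 and 11088 ± 890 (SD, n = 3 each) in vehicle and treated tumours. Hnrnpa1, a splicing repressor, stood at 3124 ± 241 and 2689 ± 194 (SD, n = 3 each), with a limma adjusted p of 0.236.

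**Figure D4:**
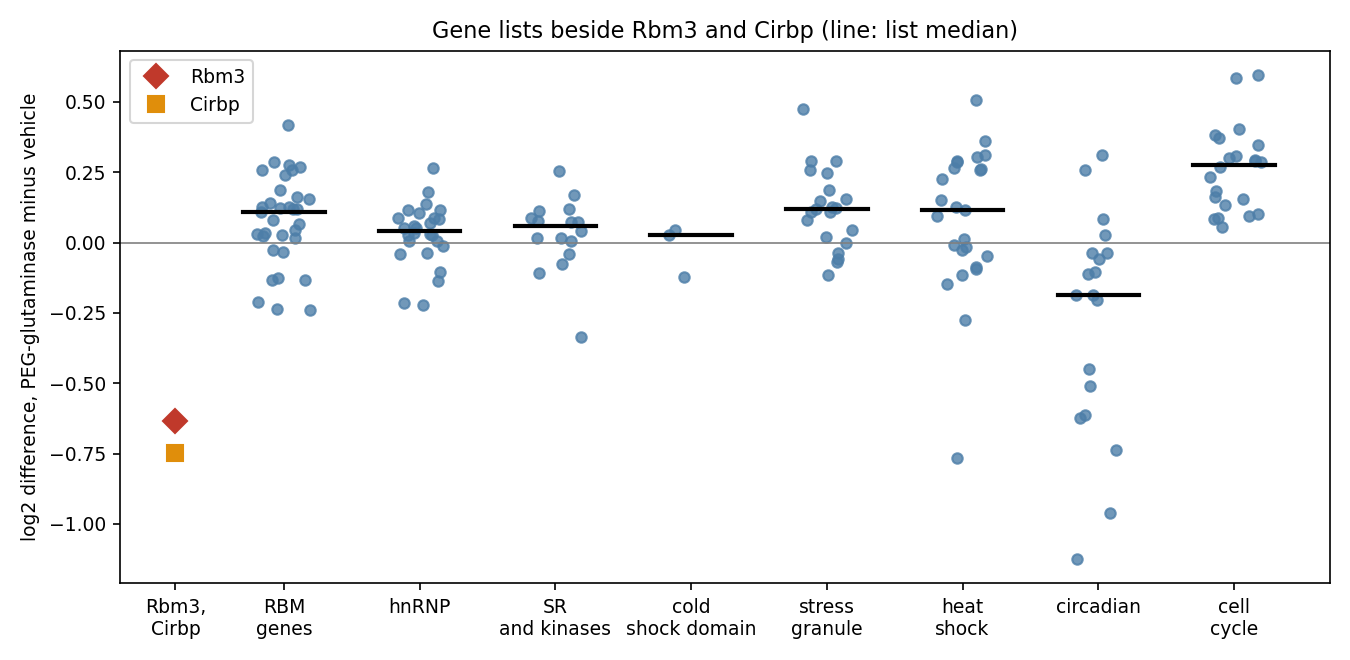
Log2 difference (vertical axis, PEG-glutaminase minus vehicle) of Rbm3 and Cirbp, at the left, and of the tested genes reported here in 8 gene lists along the horizontal axis, each point 1 gene and each line the median of the points shown. Rbm3 at -0.64 and Cirbp at -0.75, selected for being lower in this contrast, lie below every other RBM gene shown. The medians shown run from -0.19 for clock genes to 0.28 for cell cycle genes.

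Factors reported to act on Rbm3 or Cirbp stood near the middle of all genes. Of 8 tested, 5 were higher and 3 lower, with a median log2 difference of 0.05, and limma, edgeR and DESeq2 called 0. At an unadjusted p under 0.05 there was 1, higher, against 8.92% of all genes. Sp1, the factor tied to the Cirbp octamer, stood at 3459, 2953 and 3173 in vehicle and at 3425, 3026 and 3433 in treated tumours, and these ranges overlapped. Nrf1, a factor for genes of mitochondrial function, stood at 1019 ± 80.0 and 992 ± 53.6 (SD, n = 3 each). Creb1, the cyclic AMP response factor, stood at 1213 ± 77.6 and 1382 ± 9.27 (SD, n = 3 each), with a limma adjusted p of 0.239.

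Splicing regulators tied to temperature were also measured. Clk1, a kinase whose activity falls with warming, stood at 1012, 1007 and 1034 in vehicle and at 983, 1001 and 853 in treated tumours. Its groups did not overlap, but only PEG-glutaminase 3 lay far below, and the limma adjusted p was 0.513. Hnrnph1, reported to act on the splicing of a poison exon of Rbm3, stood at 5560 ± 273 and 5835 ± 245 (SD, n = 3 each), with overlap. Gene-level counts do not show whether that exon was included. Of 16 tested SR proteins and their kinases, 12 were higher and 4 lower, with a median of 0.06. Limma and edgeR called 0, and DESeq2 called 1, lower, against 2.17% lower of all genes. At an unadjusted p under 0.05 there were 1 higher and 1 lower, below the 8.92% and 9.51% of all genes. Srsf5, a splicing activator, was that lower gene, at 2536, 2253 and 2290 in vehicle and 1800, 1955 and 1848 in treated tumours. Its groups did not overlap, and its log2 difference was -0.34 ± 0.08 (SE) with a limma adjusted p of 0.122.

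Heat shock genes, whose response to temperature was not measured here, were more often higher than lower, with members on both sides. Of 25 tested, 15 were higher and 10 lower, with a median log2 difference of 0.12. Limma and edgeR called 0, and DESeq2 called 4 higher and 1 lower, against 1.73% and 2.17% of all genes. At an unadjusted p under 0.05 there were 10 higher and 2 lower, against 8.92% and 9.51% of all genes. Hsph1, a large chaperone of the HSP110 family, stood at 2844, 2877 and 2434 in vehicle and at 4342, 3435 and 3840 in treated tumours. Every treated tumour was above every vehicle tumour, and the log2 difference was 0.51 ± 0.10 (SE) with a limma adjusted p of 0.114. Hspd1, the mitochondrial chaperonin, stood at 7288 ± 160 and 9401 ± 1059 (SD, n = 3 each), with a limma adjusted p of 0.135. Hsp90aa1, the inducible cytosolic HSP90, stood at 15141 ± 1091 and 18472 ± 786 (SD, n = 3 each), with a limma adjusted p of 0.172.

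The small heat shock gene Cryab differed the other way. It stood at 589, 675 and 612 in vehicle and at 476, 289 and 359 in treated tumours, without overlap, and the limma adjusted p was 0.114. Hsf1, the main heat shock factor, stood at 1305 ± 21.7 and 1426 ± 48.5 (SD, n = 3 each), with a limma adjusted p of 0.363. Dnajb1, a cochaperone that answers strongly to heat, stood at 2412 ± 578 and 2147 ± 286 (SD, n = 3 each), with overlap. Hspb8, Bag3 and Dnajb4 were also among the 10 lower genes, against 15 higher, and were named after their values were seen. Their log2 differences were -0.28, -0.11 and -0.09, with limma adjusted p of 0.223, 0.561 and 0.683. Hspa1a and Hspa1b, the classical heat-induced HSP70 genes, are listed at 0 in all 6 libraries, and Hspb1 at 1.04 or less, so these gave no readout of heat.

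**Figure D5:**
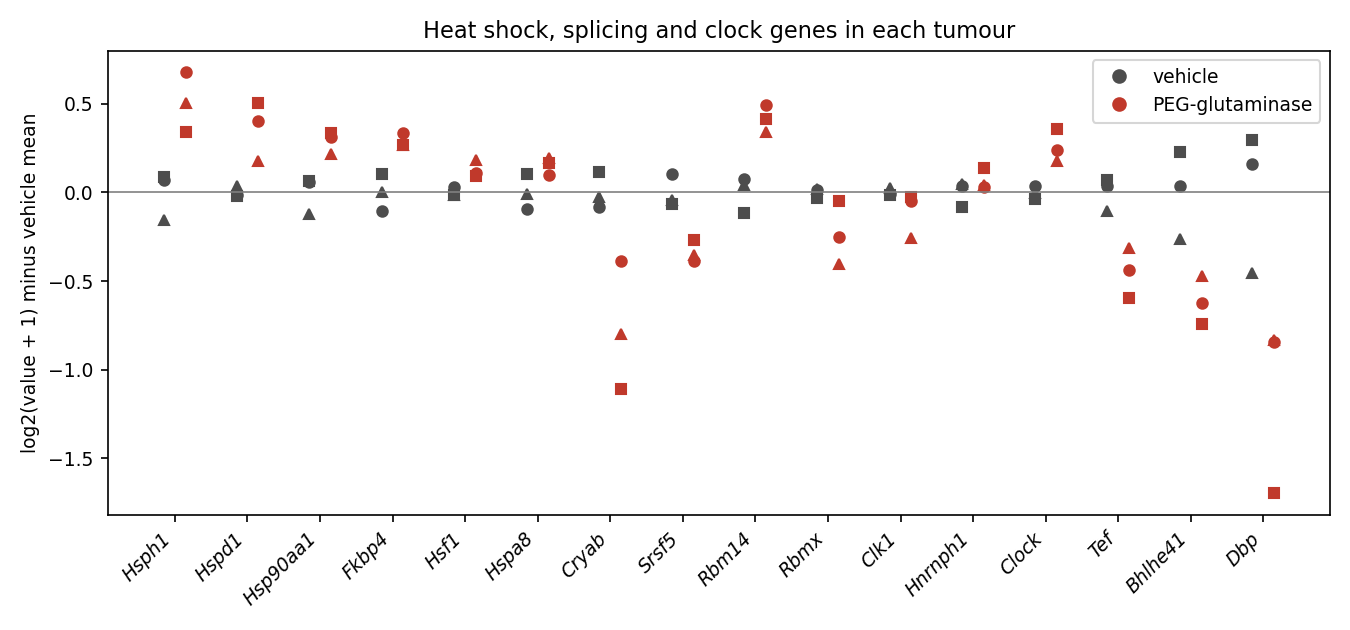
Log2(value + 1) of 16 heat shock, splicing and clock genes (horizontal axis) in each tumour minus the mean of the 3 vehicle tumours (vertical axis), with vehicle in grey, PEG-glutaminase in red and a marker shape per library number. The 3 treated tumours lie above the vehicle tumours for Hsph1 and below them for Cryab, Tef and Dbp. None of the 16 genes passed the threshold in limma or edgeR. DESeq2 called Hsph1, Hspd1, Hsp90aa1, Fkbp4, Cryab, Srsf5, Rbm14, Tef, Bhlhe41 and Dbp.

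Proteins with a cold shock domain form another family, despite the name, and only 4 of 8 were tested. Of these 3 were higher and 1 lower, with a median log2 difference of 0.02. Limma, edgeR and DESeq2 called 0, and 0 reached an unadjusted p under 0.05. Ybx1, a packaging protein of cytoplasmic mRNA, stood at 16659 ± 1141 and 16949 ± 637 (SD, n = 3 each). Stress granule proteins, with which both members can gather in stressed cells, were more often higher than lower, with 16 of 21 higher and a median of 0.12. Limma, edgeR and DESeq2 called 0 of them, and 6 were higher and 0 lower at an unadjusted p under 0.05, against 8.92% and 9.51% of all genes. Tardbp, the TDP-43 gene, stood at 4230 ± 347 and 5171 ± 335 (SD, n = 3 each), with a limma adjusted p of 0.159.

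Transcripts and partners reported for RBM3 or CIRBP were more often higher than lower. Of 14, 10 were higher and 4 lower, with a median log2 difference of 0.08. Limma, edgeR and DESeq2 called 0, and 3 were higher and 0 lower at an unadjusted p under 0.05, against 8.92% and 9.51% of all genes. Rtn3, whose translation RBM3 is reported to raise in cooled neurons, stood at 3043 ± 107 and 3147 ± 211 (SD, n = 3 each), with overlap. Atr, a DNA damage kinase reported as a CIRBP-bound message, stood at 643, 530 and 600 in vehicle and at 676, 839 and 770 in treated tumours. Its groups did not overlap, and the limma adjusted p was 0.155. Eif4g1, a scaffold of translation initiation, stood at 10966 ± 1276 and 13865 ± 911 (SD, n = 3 each), with a limma adjusted p of 0.161.

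Circadian clock genes were examined because both proteins are reported to set the amplitude of the clock. Of 19 tested, 4 were higher and 15 lower, with a median log2 difference of -0.19. Limma and edgeR called 0 and DESeq2 called 3, all lower, against 2.17% lower of all genes. An unadjusted p under 0.05 was reached by 2 higher and 4 lower, against 8.92% and 9.51% of all genes. Clock, whose transcript CIRBP is reported to bind, stood at 1375, 1309 and 1340 in vehicle and at 1583, 1720 and 1516 in treated tumours. Its groups did not overlap, and its log2 difference of 0.26 ± 0.08 (SE) was opposite in sign to that of Cirbp, with a limma adjusted p of 0.155. Tef, a clock output factor, stood at 3768 ± 242 and 2762 ± 266 (SD, n = 3 each), with a limma adjusted p of 0.114. Bhlhe41, a clock repressor, stood at 1027 ± 172 and 666 ± 63.7 (SD, n = 3 each), with a limma adjusted p of 0.114.

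Dbp, the clock output gene with the lowest difference of those named, stood at 2634, 2887 and 1720 in vehicle. In treated tumours it stood at 1312, 726 and 1322. The groups did not overlap, the log2 difference was -1.12 ± 0.32 (SE), and the limma adjusted p was 0.189. Per2, a core clock repressor, stood at 920 ± 104 and 901 ± 238 (SD, n = 3 each), and its groups overlapped. The sources used here do not give the time of day at which the tumours were taken.

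Receptors and signalling genes reported for CIRBP released from cells did not separate the groups. The list held Tlr4, Ly96, Trem1, Cd14, Il6ra and Nlrp3, of which not all are receptors. Of 6, 1 was higher and 5 lower, with a median log2 difference of -0.25, and the groups overlapped for each. Without vehicle 3 that median was -0.074. Limma, edgeR and DESeq2 called 0, and 0 reached an unadjusted p under 0.05. Tlr4, the endotoxin receptor, stood at 727 ± 47.5 and 719 ± 41.4 (SD, n = 3 each). Trem1, an amplifier of myeloid responses, stood at 131, 179 and 78.5 in vehicle and at 90.1, 50.5 and 105 in treated tumours.

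Cell cycle genes stood on the other side of 0 from Rbm3 and Cirbp. All 22 tested were higher in treated tumours, with a median log2 difference of 0.28, and 12 reached an unadjusted p under 0.05, against 8.92% higher of all genes. Limma and edgeR called 0 and DESeq2 called 3, against 1.73% higher of all genes. Ccne2, a cyclin of S phase entry, stood at 452, 539 and 493 in vehicle and at 745, 835 and 652 in treated tumours. Its limma adjusted p was 0.111 and its DESeq2 adjusted p 0.00283. Mki67, the proliferation marker, stood at 6132, 3680 and 4857 and at 5816, 6752 and 6469, and these ranges overlapped.

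The genes most like Rbm3 over the 6 libraries were sought by Pearson correlation of log2 values among 10161 genes with a mean of at least 100. Id3, an inhibitor of helix-loop-helix factors, came first at 0.99, followed by Mettl21a, Msra, Naa38 and Rac1. Id3 stood at 264, 311 and 293 in vehicle and at 149, 125 and 121 in treated tumours. It fell by 1.13 on the log2 scale, with a limma adjusted p of 0.0371, whereas edgeR gave an adjusted p of 0.0889. Over its 17 alternatives the adjusted p of Id3 ran from 4.75e-07 to 0.178 and was under 0.05 in 10. It was 0.126, 0.173 and 0.109 without vehicle 1, 2 and 3 and 0.178 without PEG-glutaminase 1. For Cirbp the first were Eci2, at 0.99, Pdcd10, Bloc1s6, Acot9 and Rarres2. Rarres2, the chemerin gene, had the lowest difference of these 5, with 766 ± 117 and 523 ± 48.7 (SD, n = 3 each). Its limma adjusted p was 0.114 and its DESeq2 adjusted p 0.0118. The 2 sets of 5 had no gene in common, and Cirbp itself stood at place 426 in likeness to Rbm3. These correlations rest on 6 points that share the group difference and the library scaling.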

How the data were processed

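RNA sequencing covered 6 CT26 tumours from 6 mice, 3 per group, and groups and numbers came from the sample titles. The p-values measure the spread between these mice. The members and all gene lists were chosen with earlier results of these data known.

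The deposited table gives an expression signal, normalized counts, in which the authors divided each library's read count by a size factor. Gene models are those of BALB/cJ with a symbol beside each, per the file headers, and 93 of 40396 rows repeat a model and were used once. Models without a symbol (2902) held 0.13% to 0.214% of reads. Tools in the submitters' processing notes are STAR, featureCounts, FastQC, DESeq and DESeq2. The sources used here give no aligner settings, build, strand setting or read length. The authors' deposited table also holds, per the file headers, a log2 fold change with its standard error, a Wald score and p-values, of which only the log2 fold change and its error are printed.

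In every library 100% of values above 0 were whole reads times a fixed step (tolerance 0.01), so reads were recovered. For PEG-glutaminase 2 this rests on the values alone, because its step lies near 1. Any 2 libraries differed beyond sampling noise, with a chi-square of 8.18 or more per degree of freedom. As the values are normalized, the test was limma 3.58.1 (R 4.3.3, trend and robust) on log2(value + 1), two-sided, Benjamini-Hochberg over 13557 genes with a mean of at least 10, at 0.05. An exact permutation test of 3 against 3 cannot give a p below 0.1. Folds on this scale understate the change of low genes. On simulated counts for this comparison (13557 genes, 200 changed), limma recovered 44.3% of 1.5-fold, 64.5% of 2-fold and 86.4% of 3-fold changes, with 5.97% false calls.

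Named genes were the members and Rbm3-ps, up to 4 of smallest p per list, a set named whatever their result, and the 5 most like each member, of which the text gives a part. A gene that this rule names is not reported here. Alternatives were other pseudocounts and filters, edgeR 4.0.16, DESeq2 1.42.0, a length correction, the replicate number as a block and each library left out. Copies of Rbm3 were sought with BLAST 2.17.0 in GENCODE M21 transcripts, which also gave coding sequences, lengths and locations on GRCm38, from C57BL/6J rather than the BALB/cJ models. Promoters came from the RefSeq table (GRCm38.p6).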

Additional observations from a re-analysis of the deposited data

How the results depend on the processing

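The log2 differences of Rbm3 and Cirbp stayed below 0 under every alternative run. The number of genes called among all genes, 5, was less stable: it was 136 with no filter on low values, 0 with edgeR, 487 with DESeq2, 3 without vehicle 1 and PEG-glutaminase 2 together, and 0 to 25 with each library left out (0 without vehicle 1, vehicle 2 or PEG-glutaminase 1, 20 without PEG-glutaminase 2 and 25 without PEG-glutaminase 3). With the replicate number as a block 1 gene was called. In this balanced design the block cannot move the log2 differences of -0.64 for Rbm3 and -0.75 for Cirbp, and their standard errors went from 0.08 to 0.10 and from 0.14 to 0.11. Deviations of same-numbered tumours from their group means had correlations of -0.13, -0.21 and -0.22 over 3 pairs. Such deviations sum to 0 within each group, so these values cannot decide whether the numbers mark a pairing. Under the length correction the median of the upstream factors was -0.0029 and that of the RBM genes other than Rbm3 0.042. With each library left out, the median of the listed relatives ran from 0.097 to 0.20. That of the receptors and signalling genes reported for CIRBP ran from -0.34 to -0.074, the latter without vehicle 3. Signs turned for genes near 0. Under the length correction Sp1 was at -0.076. Without vehicle 1 and PEG-glutaminase 2 together, Rbm4 was at 0.26, Ybx1 at -0.020, Per2 at 0.18 and Rtn3 at -0.035. With each library left out the range was -0.32 to 0.027 for Dnajb1, -0.010 to 0.11 for Sp1, -0.091 to 0.021 for Nrf1, -0.31 to 0.46 for Rbm4, -0.011 to 0.081 for Ybx1, -0.23 to 0.16 for Per2, -0.0070 to 0.084 for Rtn3 and -0.063 to 0.032 for Tlr4. The cause was not tested. With 3 mice per group, differences of the size seen in the lists can be missed.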
